A study of Mus musculus with 12 samples.

Results

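Batch 1 was 1 of the 3 batches in which 2 related mouse mammary cancer lines were grown and sequenced, and it gave 4 of the 12 libraries. The labels name the batch of every library, and the 4 were taken by that label alone: D2A1 in 2D, D2A1 in 3D, D2.OR in 2D and D2.OR in 3D, 1 library each. They were compared with the 8 libraries of batches 2 and 3, which hold 2 libraries of each of the same 4 groups. 2D means growth on plastic and 3D means growth on a bed of Matrigel, a basement membrane extract, low in growth factors (Matrigel on Top), and RNA was taken after a week of culture. The 3D medium was DMEM/F12 with horse serum, hydrocortisone, cholera toxin and insulin. For the RNA, the study's methods refer to the general cell culture procedure, where 2D cells grow in high-glucose DMEM, while another of its protocols has 2D cells in the 3D medium. A difference in medium between the cultures cannot be told apart from the culture itself. The lines come from separate D2 mammary tumors and carried no gene edit or drug treatment. In the study both lines grew equally well in 2D. D2A1 formed liver metastases and grew in 3D, whereas D2.OR stayed mostly dormant in liver and arrested in 3D. A library was made from pooled wells of 1 line and culture, so that the spread between wells is not in the data. Each batch had a sequencing lane of its own, so culture batch, RNA extraction, library preparation and lane cannot be told apart. Batch 1 is also a single batch, and the p-values below measure its distance from the other libraries against the spread among these 12, not how often another batch would differ as much.

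Some pathways have known target genes whose transcripts were measured here. Interferons induce a set of interferon-stimulated genes, many of them antiviral, whose promoters often hold a repeated GAAA element (ISRE). Cyclic AMP, which cholera toxin raises by locking its G protein on, activates protein kinase A and CREB. CREB binds the cAMP response element (CRE), and phosphodiesterases of the PDE4 family destroy cAMP and are themselves transcribed in response to it. Hydrocortisone acts through the glucocorticoid receptor, whose targets include Tsc22d3 and Fkbp5.

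The promoters of 5 interferon-stimulated genes that were higher in batch 1 and of Areg, a cAMP-responsive gene that was lower, are shown because the values below return to these genes. Each sequence gives the 250 bases before the transcription start (RefSeq, GRCm38.p6), read in the direction of the gene. The positions are Isg15, chr4:156200819-156201068, minus strand; Ifit1, chr19:34640639-34640888, plus strand; Ifit3, chr19:34583279-34583528, plus strand; Rsad2, chr12:26456453-26456702, minus strand; Oas3, chr5:120777660-120777909, minus strand; and Areg, chr5:91139349-91139598, plus strand. Capitals mark matches to the ISRE core GAAANNGAAA on either strand (TTTCNNTTTC on the other) or, in Areg, to the full CRE TGACGTCA, which reads the same on both strands. Overlapping matches are joined.
Isg15: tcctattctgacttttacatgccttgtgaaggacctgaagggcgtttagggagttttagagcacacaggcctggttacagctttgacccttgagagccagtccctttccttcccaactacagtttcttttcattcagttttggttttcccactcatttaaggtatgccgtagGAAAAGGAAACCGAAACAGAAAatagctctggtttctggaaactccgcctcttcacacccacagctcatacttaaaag
Ifit1: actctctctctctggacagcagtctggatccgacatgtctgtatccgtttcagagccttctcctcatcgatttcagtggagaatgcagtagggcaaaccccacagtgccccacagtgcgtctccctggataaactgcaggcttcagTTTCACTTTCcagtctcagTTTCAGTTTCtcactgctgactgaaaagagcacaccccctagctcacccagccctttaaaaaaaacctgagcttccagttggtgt
Ifit3: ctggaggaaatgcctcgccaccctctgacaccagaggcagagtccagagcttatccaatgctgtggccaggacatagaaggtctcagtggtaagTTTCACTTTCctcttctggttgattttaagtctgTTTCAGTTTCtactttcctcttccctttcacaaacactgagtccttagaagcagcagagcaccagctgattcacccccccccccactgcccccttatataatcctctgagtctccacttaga
Rsad2: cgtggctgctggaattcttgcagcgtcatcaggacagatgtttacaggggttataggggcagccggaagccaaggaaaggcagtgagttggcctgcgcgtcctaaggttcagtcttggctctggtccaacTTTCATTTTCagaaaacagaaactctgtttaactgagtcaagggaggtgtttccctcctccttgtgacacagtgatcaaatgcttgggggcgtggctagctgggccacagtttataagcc
Oas3: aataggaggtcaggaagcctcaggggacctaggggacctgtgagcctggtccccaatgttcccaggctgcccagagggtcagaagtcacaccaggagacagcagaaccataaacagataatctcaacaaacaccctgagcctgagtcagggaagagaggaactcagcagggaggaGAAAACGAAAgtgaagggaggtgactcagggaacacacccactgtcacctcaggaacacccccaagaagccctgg
Areg: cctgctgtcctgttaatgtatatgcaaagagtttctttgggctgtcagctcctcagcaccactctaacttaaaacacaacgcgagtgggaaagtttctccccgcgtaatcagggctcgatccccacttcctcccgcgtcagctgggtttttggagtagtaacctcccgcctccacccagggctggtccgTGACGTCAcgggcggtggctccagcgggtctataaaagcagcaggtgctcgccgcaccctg
In Isg15 the capitals cover 22 bases, from 78 to 57 bases before the start. Ifit1 and Ifit3 each hold 2 separate matches. Of the 24 interferon-stimulated genes of the list below with a promoter in the table, 12 held an ISRE core in the 300 bases searched, against 936 of 27025 genes (3.46%) and 978 of 32851 promoters (2.98%). The CRE was present in 2 of 13 cAMP and CREB targets against 478 of 27025 genes (1.77%) and 508 of 32851 promoters (1.55%). A match says that these letters are present, not that a factor binds there.

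The libraries held 47589611 to 73325069 counts, and batch 1 gave both the smallest (D2A1 2D) and the largest (D2.OR 2D). The line labels of the batch 1 libraries were checked with genes that batches 2 and 3 found in 1 line only. The 11 D2A1 genes summed to 373 and 274 CPM (counts scaled to a fixed library total) in the batch 1 libraries of D2A1 and to at most 0.332 CPM in those of D2.OR. The 17 D2.OR genes summed to 467 and 476 CPM in D2.OR and to at most 0.647 CPM in D2A1. The number of genes with a count was higher in batch 1 in 4 of 4 groups, by a mean of 485 genes (exact permutation test, two-sided, p = 0.0123, the smallest p that 81 arrangements allow, and 0.0741 after adjustment over 6 measures). The share of counts in the 10 most abundant genes was lower in 4 of 4 groups, by 0.636 percentage points (exact permutation test, two-sided, p = 0.0494, adjusted 0.0988). Both tests shuffled batch labels separately in each group, so they ignore that libraries are paired by batch. Their p-values are too small where libraries of a batch vary together. Of the markers of other cell types, Tyrobp, Hbb-bs and Hbb-bt had no count in any library, and Ptprc, Thy1 and Cdh5 stayed at or under 0.138, 0.036 and 0.047 CPM. Others were well above the floor: fibroblast markers summed to 103 to 941 CPM in batch 1 and 72.4 to 1011 CPM elsewhere, mostly Pdgfra, Pdgfrb and Col1a1, with 0 of 5 tested called, and Cd14 and Fabp4 are given below. Of the keratins of mammary epithelium, Krt5 and Krt19 stayed at or under 0.031 and 0.082 CPM, Krt14 reached 4.95 CPM, Krt8 ranged from 0.848 to 966 CPM and Krt18 from 75.3 to 472 CPM. The marker values of this paragraph scale by the whole library. The sums of line genes and the gene values below are CPM after TMM scaling unless said otherwise.

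Batch 1 stood apart from the other batches over a large part of the transcriptome. Of 16823 genes tested, 2528 (15.0%) differed between batch 1 and batches 2 and 3 in edgeR's quasi-likelihood test with the 4 groups as blocks (Benjamini-Hochberg adjusted p under 0.05, the threshold used throughout). Of these, 1570 (9.33% of genes tested) were higher in batch 1 and 958 (5.69%) were lower, and 982 changed at least 2-fold, 669 up and 313 down. Split by batch, 1140 genes (6.78%) differed between batches 1 and 2 and 1359 (8.08%) between batches 1 and 3, comparisons that share the batch 1 libraries. Between batches 3 and 2, of the same size, edgeR called 0 genes (458 at an unadjusted p under 0.05) and the Wald test of DESeq2 called 3. In 1670 genes (9.93%) batch 1 lay above both other batches in all 4 groups, and in 1191 (7.08%) below both. Of the former 1238 were called, and of the latter 732. The count rests on having both other batches: without batch 2 it was 124 genes and without batch 3 it was 246. It was 3995 without the D2A1 2D group and 1119 without D2A1 3D. Once group means were removed, the first principal component held 42.8% of the variance and placed the 4 batch 1 libraries at 43.9 to 63.7 and the 8 others at -33.0 to -15.4. The second, with 15.5%, spread the batch 1 libraries themselves, with D2A1 2D at one end and both D2.OR libraries at the other.

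**Figure D1:**
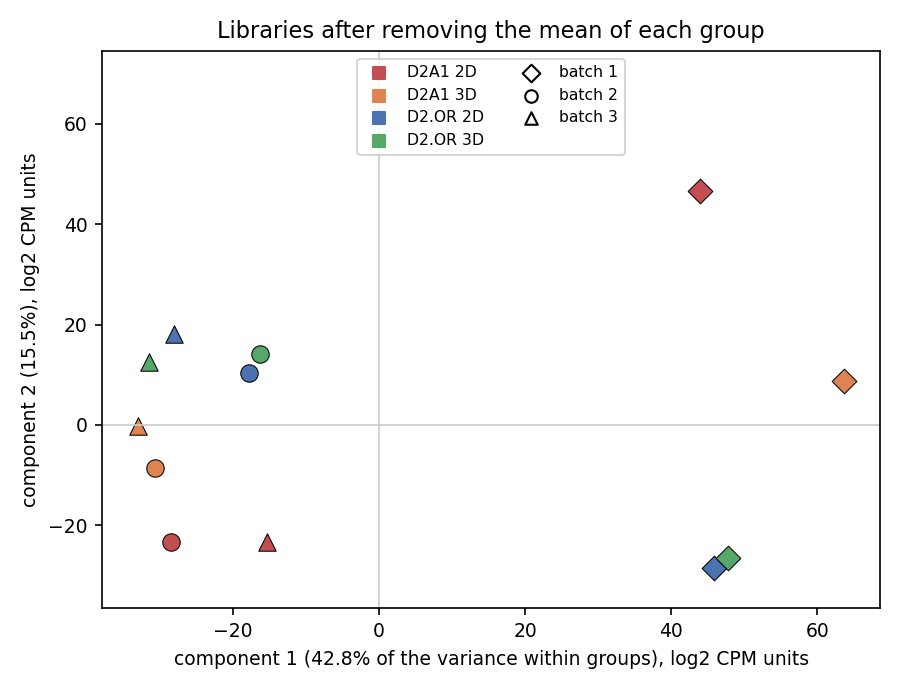
Each of the 12 libraries is placed by the first (horizontal) and second (vertical) principal component of log2 CPM after the mean of its group was subtracted, with color for the group and shape for the batch. The 4 batch 1 libraries (diamonds) lie between 43.9 and 63.7 on the first component and all 8 others at or below -15.4.

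The phosphodiesterase genes Pde4b, Pde4d and Pde10a fell in batch 1 of both lines and both cultures. Values of the 4 batch 1 libraries are given in the order D2A1 2D, D2A1 3D, D2.OR 2D and D2.OR 3D. Pde4b (chr4:102087543-102607259, GRCm38), a cAMP phosphodiesterase, had 5.91, 6.64, 14.7 and 12.8 CPM in batch 1 against 47.7 to 112 CPM (median 74.4) in the 8 other libraries. Every batch 1 library lay below every other library, and the fall was 8.02-fold (log2 fold change -3.00 ± 0.13 (SE), adjusted p = 4.9e-06 in edgeR), the same call under 26 of 26 alternatives. Its paralog Pde4d had 5.58, 3.57, 10.7 and 11 CPM against 17.2 to 48.7 CPM (median 38.8) (log2 fold change -2.19 ± 0.15 (SE), adjusted p = 7.6e-05 in edgeR), again without overlap. Pde10a, which degrades both cyclic nucleotides, had 3 counts or fewer in each batch 1 library against 0.834 to 2.88 CPM (median 1.27), and so was at least 30.6-fold lower by a floor of 3 counts per library. The 3 genes were called in each of the 4 groups when these were tested one by one. Other PDE4 genes did not follow: over all groups Pde4a rose and Pde4c was not called.

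The whole list of cAMP and CREB targets did not move one way. Of its 15 genes, 5 fell and 4 rose, beside 5.69% and 9.33% of all genes, with a median log2 fold change of 0.25. Besides the phosphodiesterases, Areg, an EGF receptor ligand, fell from a range of 2.3 to 45.5 CPM (median 19.1) to 0.344, 0.808, 4.78 and 8.89 CPM (log2 fold change -3.00 ± 0.50 (SE), adjusted p = 0.0045 in edgeR). The ranges overlap, although batch 1 lay below both other batches in every group. Crem, a CREB family repressor that cAMP induces, fell by 0.40 on the log2 scale (SE 0.10, edgeR adjusted p = 0.028). In the other direction, the nuclear receptor Nr4a1 rose by 1.29 ± 0.27 (SE, edgeR adjusted p = 0.013), most in D2.OR 3D, where it had 229 CPM in batch 1, 39.8 in batch 2 and 46.7 in batch 3. Cited2, a coactivator-binding protein, rose by 0.65 ± 0.12 (SE, edgeR adjusted p = 0.0072). Without the D2A1 3D group, 1 of the 15 genes rose and 4 fell, beside 723 and 396 of all 16220 genes tested. Rises were 2 without batch 1 or 2 of D2A1 3D, batch 2 of D2.OR 2D or batch 1 of D2.OR 3D.

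Secreted cytokines and growth factors were among the largest falls. Il6 (chr5:30013114-30019981, GRCm38), the interleukin that signals through gp130, had 0.142, 0.284, 3.82 and 2.35 CPM in batch 1 and 1.21 to 48.5 CPM (median 28.1) elsewhere. It lay below both other batches in each group, and its log2 fold change was -4.10 ± 0.51 (SE), adjusted p = 0.0013 in edgeR. Il11, of the same family, fell from a range of 1.86 to 27.3 CPM (median 11.4) to 0.668, 0.51, 0.75 and 1.54 CPM (log2 fold change -3.35 ± 0.53 (SE), adjusted p = 0.0034 in edgeR). Hgf (chr5:16553495-16620152, GRCm38), the ligand of the MET receptor, went from a range of 5.6 to 37 CPM (median 12.4) to 0.344, 0.0284, 0.635 and 0.166 CPM. No batch 1 library reached 1 CPM, and the fall was 59.8-fold (log2 fold change -5.90 ± 0.45 (SE), adjusted p = 0.00012 in edgeR). Cxcl3, a neutrophil chemokine, had 0.223, 1.19, 12 and 11.6 CPM against 2.5 to 117 CPM (median 32.4) (log2 fold change -3.16 ± 0.40 (SE), adjusted p = 0.0014 in edgeR).

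Slpi, a secreted protease inhibitor, had 13.8, 25.3, 11.4 and 15.3 CPM in batch 1 and 43.6 to 500 CPM (median 147) in the others, again without overlap (log2 fold change -3.18 ± 0.39 (SE), adjusted p = 0.0012 in edgeR). Lcn2, an iron-siderophore binding protein, fell by 2.01 on the log2 scale (SE 0.30, edgeR adjusted p = 0.0026). Stc1, a secreted glycoprotein hormone expressed in D2.OR, went from 31.0 and 59.0 CPM in D2.OR 2D of batches 2 and 3 to 1.90 CPM in batch 1. In D2.OR 3D it went from 15.7 and 27.5 CPM to 2.09 CPM (log2 fold change over the groups -3.88 ± 0.38 (SE), adjusted p = 0.00042 in edgeR). F5, coagulation factor V, was mainly a D2A1 gene: in D2A1 2D it had 0.0405 CPM in batch 1, 183 in batch 2 and 63.2 in batch 3, and in D2A1 3D 0.156 CPM in batch 1, 16.8 in batch 2 and 9.37 in batch 3 (log2 fold change over the groups -7.68 ± 1.08 (SE), adjusted p = 0.0021 in edgeR, a fitted value that depends on the prior count because batch 1 is near 0). The log2 fold changes were -4.71 ± 0.45 (SE), adjusted p = 0.0004 for Cyp2f2, a cytochrome P450 expressed in D2.OR, and -3.38 ± 0.44 (SE), adjusted p = 0.0015 for Rbpms, an RNA-binding protein, both in edgeR. Cd33, a sialic acid-binding receptor known from myeloid cells, fell from a range of 2.85 to 38.9 CPM (median 8.05) to 1.01, 1.64, 0.0866 and 0.282 CPM (log2 fold change -3.90 ± 0.58 (SE), adjusted p = 0.0026 in edgeR). The remaining member of the 12 largest falls was Gm20796, annotated as a processed pseudogene, which can share reads with its parent gene (log2 fold change -3.73 ± 0.65 (SE), adjusted p = 0.0056 in edgeR).

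The list of NF-kB targets, chemokines and cytokines, to which Il6, Cxcl3 and Lcn2 belong, had 5 of 28 genes lower and 4 higher, beside 5.69% and 9.33% of all genes, with 8 lower without batch 1 of D2.OR 3D. Csf1, the macrophage growth factor, rose from a range of 94.1 to 219 CPM (median 120) to 304, 219, 154 and 228 CPM (log2 fold change 0.76 ± 0.12 (SE), adjusted p = 0.0038 in edgeR). Vcam1, a leukocyte adhesion molecule, rose by 2.46 ± 0.42 (SE, edgeR adjusted p = 0.0049), from 4.54 to 7 CPM in D2A1 of batches 2 and 3 to 60.7 and 62.7 CPM in batch 1. Among 10 leukocyte and macrophage markers, Cd14 fell from a range of 19.8 to 166 CPM (median 40.1) to 14.4, 25.2, 11.1 and 6.28 CPM (log2 fold change -1.95 ± 0.29 (SE), adjusted p = 0.0027 in edgeR). Scaled by the whole library, the 10 together had 9.33 to 33.5 CPM in batch 1 and 24.6 to 178 CPM in the rest. Of the others, Cd68 reached 19.98 CPM, Csf1r 1.38 CPM and Adgre1 0.062 CPM, and Tyrobp had no count. The part of such cells in these results was not tested. In bulk RNA, fewer cells with a transcript and less of it per cell cannot be told apart.

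The largest rises included Aldh1a1 and its neighbor Aldh1a7. Aldh1a1 (chr19:20492715-20643462, GRCm38), a retinaldehyde dehydrogenase, had 51.5, 7.69, 5.63 and 36.1 CPM in batch 1, against 4.10 and 6.10 CPM in D2A1 2D and at most 0.662 CPM in the other groups of batches 2 and 3. The rise was 28.3-fold (log2 fold change 4.82 ± 0.37 (SE), adjusted p = 0.00012 in edgeR). Aldh1a7 (chr19:20692953-20727562, GRCm38) had 35.2, 8.58, 3.23 and 78.5 CPM against 0.0598 to 1.76 CPM (median 0.348) (log2 fold change 5.54 ± 0.35 (SE), adjusted p = 5.2e-05 in edgeR). Both were called under all 25 alternatives that kept them, and as close paralogs they can share reads, so their separate levels are uncertain. The list of retinoid and aldehyde metabolism had no other member called (2 of 18 rose and none fell, 11.1% called beside 15.0% of all genes). Sult1a1, a sulfotransferase, rose by 4.46 ± 0.69 (SE, edgeR adjusted p = 0.0032), from 0.0154 and 0.0588 CPM to 14.6 CPM in D2A1 3D. In D2.OR 3D it had 103 CPM in batch 1 against 33.6 and 8.38 CPM, a difference that did not pass on its own (edgeR adjusted p = 0.07).

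Postn, a matrix protein that binds integrins, went from a range of 0.0147 to 41.2 CPM (median 7) to 204, 18.1, 46.3 and 93 CPM (log2 fold change 4.02 ± 0.85 (SE), adjusted p = 0.012 in edgeR). Its rise passed in both D2A1 cultures (edgeR adjusted p of 0.017 and 0.0074) but not in D2.OR. The leucine-rich proteoglycan Prelp was mainly a D2.OR gene: in D2.OR 2D it had 522 CPM in batch 1, 45.5 in batch 2 and 15.9 in batch 3, and in D2.OR 3D 439 CPM in batch 1, 50.1 in batch 2 and 14.2 in batch 3 (log2 fold change over the groups 3.36 ± 0.55 (SE), adjusted p = 0.0039 in edgeR). Aspn, of the same family, reached 241 CPM in D2.OR 3D of batch 1 against 11.4 and 2.87 CPM (log2 fold change over the groups 3.83 ± 0.62 (SE), adjusted p = 0.0039 in edgeR). Tested by group, Aspn passed in D2.OR 3D only, and it had 0.397 CPM in D2A1 3D of batch 1. Prelp and Aspn were also higher in batch 2 than in batch 3 of D2.OR, in either culture. Itgbl1, an integrin beta-like protein, rose by 4.14 ± 0.66 (SE, edgeR adjusted p = 0.0036), and Clec3b, a plasminogen-binding lectin, by 3.45 ± 0.43 (SE, edgeR adjusted p = 0.0013). By group, Itgbl1 passed in 3D only and Clec3b in D2.OR only. Clec3b had 0.405 and 0.397 CPM in the D2A1 libraries of batch 1. In the list of collagens and matrix, 7 of 34 genes rose and 2 fell, beside 9.33% and 5.69% of all genes, and in D2.OR 2D 3 rose and 5 fell (median -0.56), beside 6.76% of all genes called there in either direction. The 2 falls over all groups became 5 without batch 1 of D2.OR 3D and 1 without batch 1 of D2A1 3D. Lama3, a laminin chain, rose by 2.39 ± 0.35 (SE, edgeR adjusted p = 0.0025), and Nid2, a basement membrane linker, by 2.05 ± 0.27 (SE, edgeR adjusted p = 0.0016).

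Mertk, a receptor kinase for the uptake of dead cells, had 31.3, 13, 38.6 and 64.7 CPM in batch 1 and 0.118 to 10.6 CPM (median 2.35) elsewhere, without overlap (log2 fold change 3.99 ± 0.41 (SE), adjusted p = 0.00056 in edgeR). Vipr1, a receptor for vasoactive intestinal peptide that signals through cAMP, rose from a range of 0.191 to 4.43 CPM (median 2.24) to 7.61, 6.86, 62.4 and 82.8 CPM (log2 fold change 3.98 ± 0.33 (SE), adjusted p = 0.00021 in edgeR). All 4 values were above the highest of the others. The small heat shock proteins Cryab and Hspb1 rose by 2.45 ± 0.26 and 1.67 ± 0.26 (SE, edgeR adjusted p of 0.00058 and 0.0034). They were the only risers among 20 heat shock genes, of which 2 fell, with a list median of 0.06 (beside 9.33% of all genes up and 5.69% down). Perp, a desmosomal protein and p53 target, had 170, 192, 1687 and 1476 CPM against 34.1 to 541 CPM (median 187) (log2 fold change 1.89 ± 0.19 (SE), adjusted p = 0.00044 in edgeR). It was 1 of 5 called among 22 p53 targets, all of them up (22.7% called, beside 15.0% of all genes), and 3 rose without batch 1 of D2A1 3D or of D2.OR 2D. The study detected no p53 protein in either line and proposes that both lack functional p53. A part of p53 in these rises was not tested. Pgm5, a cytoskeletal protein of adhesion sites, was mainly expressed in D2A1 and completes the 12 largest rises with Hif3a, described below (log2 fold change 3.44 ± 0.54 (SE), adjusted p = 0.0034 in edgeR).

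**Figure D2:**
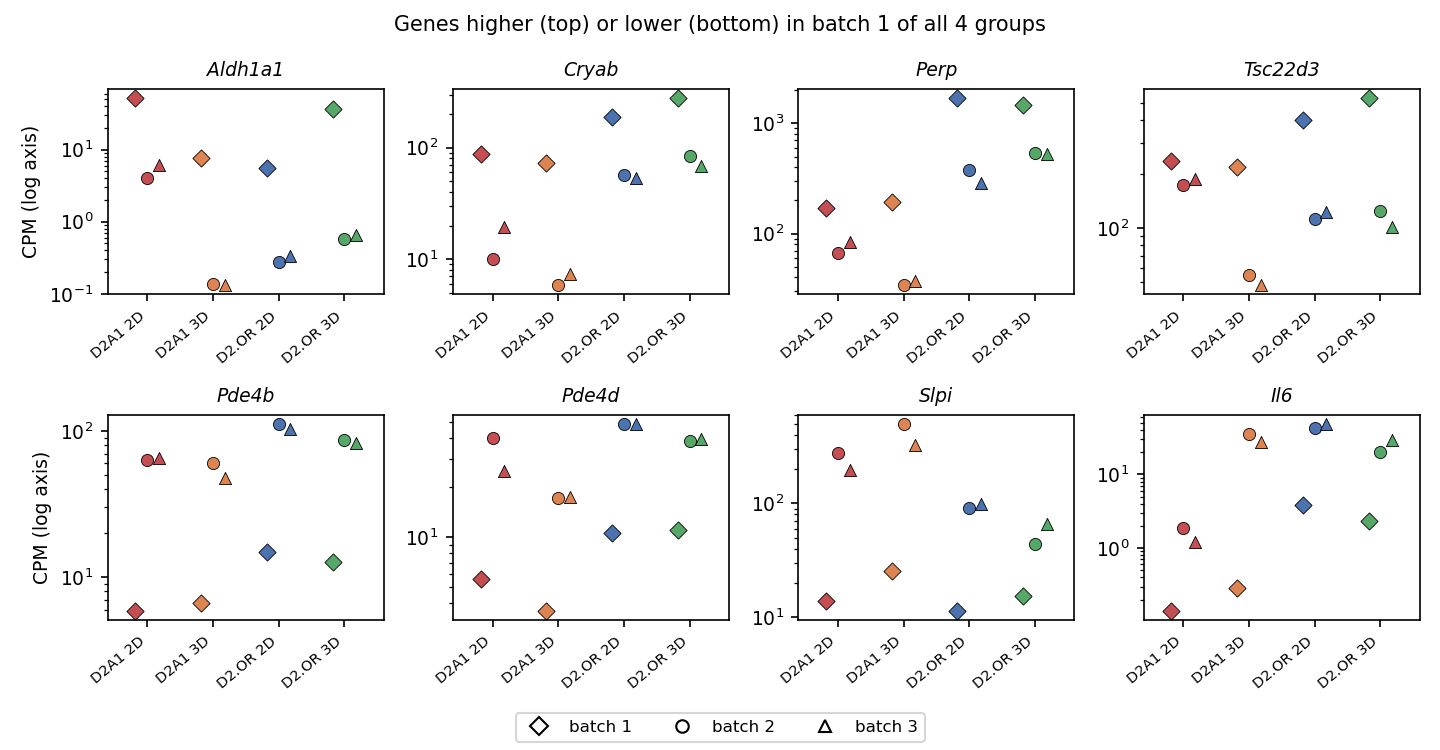
CPM on a log axis is plotted for the 12 libraries, with the 4 groups on the horizontal axis and batch 1 as diamonds, batch 2 as circles and batch 3 as triangles. Batch 1 is above both other batches in every group for Aldh1a1, Cryab, Perp and Tsc22d3 and below both for Pde4b, Pde4d, Slpi and Il6.

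Targets of the glucocorticoid receptor rose more often than they fell in 3 of the 4 groups. By group, 1, 6, 6 and 8 rose and 4, 3, 2 and 1 fell, with D2A1 2D going the other way, where 10.8%, 11.3%, 6.76% and 7.94% of all genes were called in either direction. Of 19 tested over all groups, 9 rose and 3 fell, beside 9.33% and 5.69% of all genes, with a median log2 fold change of 0.33. Tsc22d3 (GILZ), an inhibitor of AP-1 and NF-kB, had 237, 218, 402 and 530 CPM against 47.9 to 188 CPM (median 117) (log2 fold change 1.69 ± 0.23 (SE), adjusted p = 0.0018 in edgeR). The batch 1 libraries were above all others, and the rise was smallest in D2A1 2D (0.39), where it did not pass on its own. Fkbp5, a chaperone of the receptor, rose by 0.99 ± 0.19 (SE, edgeR adjusted p = 0.0075), with the largest rise in D2A1 3D, where it had 742 CPM in batch 1, 211 in batch 2 and 190 in batch 3. Nr3c1, the receptor itself, had 94.5, 93.2, 144 and 150 CPM against 64.9 to 106 CPM (median 90.4) (log2 fold change 0.48 ± 0.07 (SE), adjusted p = 0.0026 in edgeR). Hif3a, a hypoxia-inducible factor that glucocorticoids induce, had 2, 1.13, 43.7 and 30.9 CPM against 0 to 6.5 CPM (median 1.14) (log2 fold change 3.75 ± 0.38 (SE), adjusted p = 0.00048 in edgeR). Pdk4, a brake on pyruvate oxidation, rose by 1.56 ± 0.27 (SE, edgeR adjusted p = 0.0054), and was at or under 0.128 CPM in D2A1. Lcn2, which is on this list too, fell, as given above. Without the D2A1 3D group, 5 of the list rose and 2 fell, beside 723 and 396 of all 16220 genes tested. Leaving out the batch 1 library of D2A1 3D, D2.OR 2D or D2.OR 3D also gave 5 rises.

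Immediate-early genes rose in 9 of 24 cases and fell in 2, beside 9.33% and 5.69% of all genes. Btg2, an antiproliferative gene, had 89.5, 58.9, 67.6 and 69.4 CPM against 9.14 to 42.8 CPM (median 17.7), with each batch 1 library above all others (log2 fold change 1.94 ± 0.27 (SE), adjusted p = 0.0022 in edgeR). Klf6, a zinc finger factor, rose by 0.89 ± 0.12 (SE, edgeR adjusted p = 0.0018), and Jund, of the AP-1 complex, by 0.62 ± 0.10 (SE, edgeR adjusted p = 0.004). Against that direction, Ier3, an apoptosis regulator, fell from a range of 100 to 502 CPM (median 181) to 47.2, 58, 78.7 and 86.6 CPM (log2 fold change -1.59 ± 0.33 (SE), adjusted p = 0.011 in edgeR). By group, 4, 5, 0 and 9 of the 24 rose and 2, 3, 2 and 0 fell in D2A1 2D, D2A1 3D, D2.OR 2D and D2.OR 3D, where 10.8%, 11.3%, 6.76% and 7.94% of all genes were called in either direction. Leaving out any 1 library of D2A1 3D or D2.OR 3D gave 5 rises, and leaving out batch 3 of D2.OR 2D gave 13. The 16 tested targets of YAP and TAZ, coactivators that respond to cell shape and attachment, showed 10 up and 1 down, beside 9.33% and 5.69% of all genes, and by group 10, 8, 1 and 3 up and 1 down in each. F3, tissue factor, had 46.6, 43.7, 91.5 and 101 CPM against 10.3 to 33.4 CPM (median 25.6) (log2 fold change 1.65 ± 0.15 (SE), adjusted p = 0.00034 in edgeR), and was up in all 4 groups. Ctgf rose from 21.0 and 17.2 CPM to 165 CPM in D2A1 2D and from 2.5 and 4.26 CPM to 65.8 CPM in D2A1 3D. In D2.OR 2D it had 531 CPM in batch 1, 484 in batch 2 and 407 in batch 3, which did not pass (log2 fold change over the groups 2.67 ± 0.52 (SE), adjusted p = 0.0085 in edgeR). Cyr61, which encodes a matricellular protein like Ctgf, had 1029, 430, 1994 and 2827 CPM (log2 fold change 1.47 ± 0.26 (SE), adjusted p = 0.0062 in edgeR), whereas Nt5e, the ectonucleotidase CD73, fell by 1.44 on the log2 scale (SE 0.27, edgeR adjusted p = 0.0076). Without the D2A1 3D group the YAP and TAZ count was 5 up and 1 down, beside 723 and 396 of all 16220 genes tested. The count was 6 up without the batch 1 library of D2A1 3D or D2.OR 3D.

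Interferon-stimulated genes were higher in batch 1 nearly as a whole. Of 34 tested, 31 (91.2%) rose and none fell, beside 9.33% of all genes, and in 31 of the 34 batch 1 lay above both other batches in all 4 groups, beside 9.93%. The median log2 fold change was 1.52, against 0.01 over all genes. Ifit1, an RNA-binding antiviral protein, had 360, 240, 620 and 200 CPM in batch 1. In batches 2 and 3 it had 127 and 140 CPM in D2A1 2D, 14.9 and 12.9 CPM in D2A1 3D, 194 and 225 CPM in D2.OR 2D and 99.8 and 85.0 CPM in D2.OR 3D (log2 fold change 2.15 ± 0.40 (SE), adjusted p = 0.0072 in edgeR). D2A1 3D was the lowest group of batches 2 and 3 and lay between D2.OR 3D and D2A1 2D in batch 1.

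Other members rose by different amounts. Oas2, a sensor of double-stranded RNA, went from 1.67 and 1.72 CPM to 87.8 CPM in D2A1 3D and from 157 and 149 CPM to 547 CPM in D2.OR 2D (log2 fold change over the groups 2.96 ± 0.55 (SE), adjusted p = 0.0072 in edgeR). Ifit2 changed less, from a range of 23.8 to 61 CPM (median 42.6) to 108, 69.6, 127 and 52.3 CPM (log2 fold change 1.11 ± 0.13 (SE), adjusted p = 0.001 in edgeR), and was the member called under all 26 alternatives. Cmpk2, a mitochondrial nucleotide kinase, and Oas3 rose by 2.04 ± 0.30 and 1.99 ± 0.33 (SE, edgeR adjusted p of 0.0025 and 0.0045). Bst2, which tethers budding virus, had 881, 579, 1462 and 443 CPM against 62.3 to 770 CPM (median 287) (log2 fold change 1.72 ± 0.30 (SE), adjusted p = 0.0058 in edgeR). Isg15, a ubiquitin-like modifier added with Ifit3 and Rsad2 after their values were seen, had 455, 388, 536 and 242 CPM against 46.7 to 336 CPM (median 184) (log2 fold change 1.52 ± 0.30 (SE), adjusted p = 0.0095 in edgeR). Ifit3 and Rsad2, whose promoters are printed above, rose by 2.91 ± 0.54 and 1.54 ± 0.32 (SE, edgeR adjusted p of 0.0073 and 0.011). The Ifit, Oas and Mx genes have close paralogs, between which reads can be divided unequally.

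The size of the interferon difference was uneven across groups. Medians of the 34 log2 fold changes were 0.98 in D2A1 2D, 3.01 in D2A1 3D, 0.97 in D2.OR 2D and 0.87 in D2.OR 3D, with 25, 34, 27 and 21 genes up. In these groups 10.8%, 11.3%, 6.76% and 7.94% of all genes were called in either direction. The line by culture difference in the batch 1 effect, tested per gene, passed for 12 of them (Ifit1, Ifit3, Irf7, Oasl2, Mx1, Rsad2, Ifih1, Ifi44, Xaf1, Gbp2, Gbp3 and Rtp4), beside 0.618% of all genes (104). It passed for no member as a difference between lines or between cultures alone. Without the D2A1 3D group, 31 of the 34 still rose, beside 723 of all 16220 genes tested, with a median of 0.955. The call rests on both other batches: without batch 2 or without batch 3, 1 of the 34 passed, at medians of 1.41 in each case.

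MHC class I presentation moved with it in D2A1 3D. B2m, the light chain of class I molecules, had 791, 586, 1298 and 975 CPM against 182 to 828 CPM (median 556) (log2 fold change 0.99 ± 0.16 (SE), adjusted p = 0.0036 in edgeR). H2-D1, a heavy chain that shares reads with other class I genes, rose by 0.88 ± 0.22 (SE, edgeR adjusted p = 0.023), a call held under 18 of 26 alternatives and lost without the batch 1 or batch 2 library of D2A1 3D or the batch 1 library of D2.OR 3D. In all, 4 of 14 genes rose over the groups and none fell, beside 9.33% and 5.69% of all genes. By group, 12 rose in D2A1 3D (median 1.33) and 1, 0 and 2 in D2A1 2D, D2.OR 2D and D2.OR 3D (medians 0.22, 0.25 and 0.32). Of all genes, 11.3% were called in either direction in D2A1 3D and 10.8%, 6.76% and 7.94% in the others. The line by culture difference passed for 2 of the 14 (Psmb10 and H2-T23), beside 0.618% of all genes. Without the D2A1 3D group, 1 of 14 passed, beside 1119 of all 16220 genes tested. Leaving out only the batch 1 or the batch 2 library of D2A1 3D also left 1. The count was 2 without batch 2 or 3 of D2.OR 2D or batch 3 of D2.OR 3D.

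**Figure D3:**
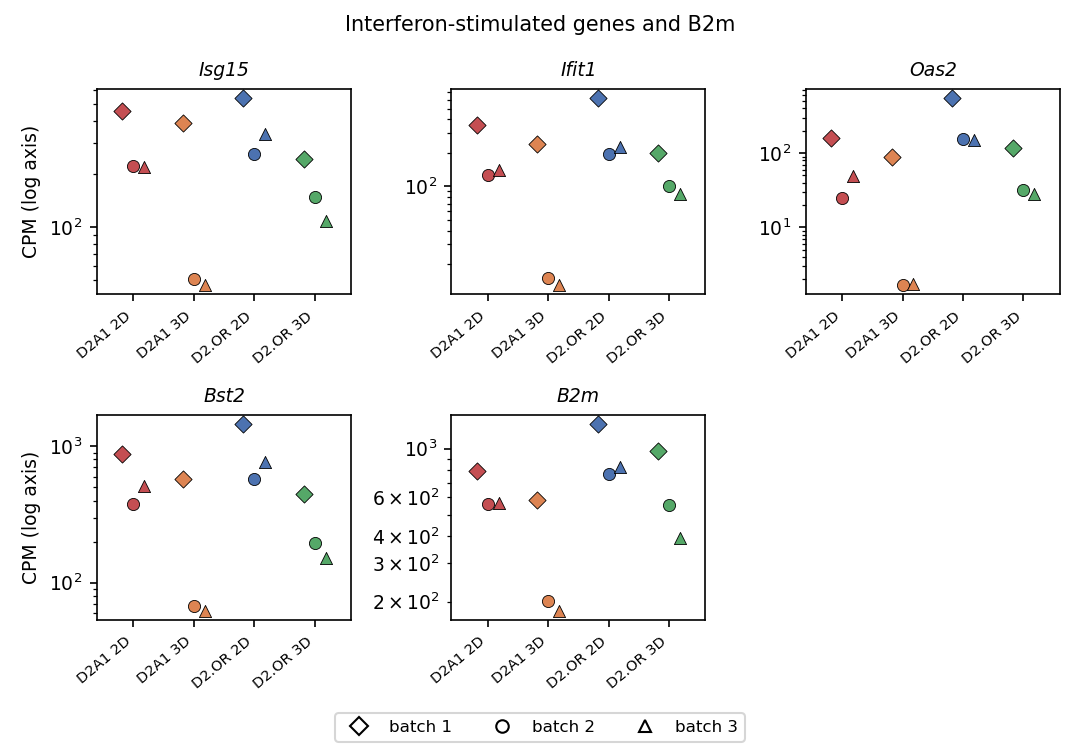
CPM of 4 interferon-stimulated genes and of B2m is plotted on a log axis for the 12 libraries, by group, with batch 1 as diamonds, batch 2 as circles and batch 3 as triangles. Batch 1 is the highest library of each group, and in D2A1 3D the circles and triangles are the lowest points of each panel.

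Glycolysis and hypoxia genes tended the other way. Of 37, 14 fell and 2 rose, beside 5.69% and 9.33% of all genes, and 13 lay below both other batches in all 4 groups. Pfkfb3, which drives glycolytic flux, had 16.3, 21, 6.09 and 11.6 CPM against 17.6 to 57.1 CPM (median 32.6) (log2 fold change -1.38 ± 0.19 (SE), adjusted p = 0.0019 in edgeR). Egln3, an oxygen-sensing hydroxylase, fell by 1.39 on the log2 scale (SE 0.20, edgeR adjusted p = 0.0025), and Hk2, hexokinase 2, by 0.92 (SE 0.18, edgeR adjusted p = 0.0095). Ldha, lactate dehydrogenase A, had 918, 1113, 681 and 536 CPM against 851 to 2038 CPM (median 1003) (log2 fold change -0.55 ± 0.11 (SE), adjusted p = 0.01 in edgeR). The values overlap across groups, and in D2A1 2D the fall was 0.09 on the log2 scale and did not pass. Without the batch 1 library of D2A1 3D, 8 of the 37 fell. Without the whole D2A1 3D group, 4 fell and 2 rose, beside 396 and 723 of all 16220 genes tested. Without D2.OR 2D 5 fell and none rose, beside 490 and 936 of 16453.

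Lysosome genes rose in 14 of 31 cases and fell in 1, beside 9.33% and 5.69% of all genes. Lamp1, an abundant membrane protein of lysosomes, had 912, 766, 1259 and 1337 CPM against 518 to 916 CPM (median 812) (log2 fold change 0.48 ± 0.07 (SE), adjusted p = 0.0022 in edgeR). Hexa, a hexosaminidase subunit, rose by 0.80 ± 0.13 (SE, edgeR adjusted p = 0.0035) and Gpnmb, a glycoprotein of lysosomes, by 2.43 ± 0.34 (SE, edgeR adjusted p = 0.0021). The median over all 31 genes, called or not, was 0.33, and rises were called for 1, 15, 7 and 10 genes in the 4 groups, where 10.8%, 11.3%, 6.76% and 7.94% of all genes were called in either direction. Rises over all groups were 5 without the D2A1 3D group, beside 723 of all 16220 genes tested. They were 21 without D2A1 2D, beside 2107 of 16554. Of 22 NRF2 and glutathione genes, 7 fell and 2 rose, beside 5.69% and 9.33% of all genes. Leaving out 1 library gave 3 falls (without batch 1 of D2.OR 2D or of D2.OR 3D) to 9 (without batch 1 of D2A1 2D) and 0 to 2 rises. Slc7a11, the cystine importer, had 84.2, 144, 58.3 and 80.3 CPM against 95.5 to 985 CPM (median 335) (log2 fold change -1.70 ± 0.32 (SE), adjusted p = 0.0075 in edgeR) and fell more in D2A1 than in D2.OR (line difference 1.62 ± 0.29 (SE), adjusted p = 0.042 in edgeR).

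Cdh1, E-cadherin, was mainly expressed in D2.OR and rose in all 4 groups. It had 0.445, 0.425, 496 and 152 CPM in batch 1. Batches 2 and 3 held 59.5 and 61.3 CPM in D2.OR 2D and 23.7 and 30.6 CPM in D2.OR 3D, and no D2A1 library exceeded 0.445 CPM in any batch (log2 fold change 2.59 ± 0.18 (SE), adjusted p = 7.6e-05 in edgeR, called under 25 of 25 alternatives). Of 31 epithelial genes, 5 rose and none fell (16.1% called, near the 15.0% of all genes, and 2 up without batch 1 of D2A1 3D), among them Spint2, a protease inhibitor (log2 fold change 0.72 ± 0.10 (SE), adjusted p = 0.0023 in edgeR). Vim, the mesenchymal intermediate filament, also rose, from 581 and 619 CPM to 1997 CPM in D2A1 2D and from 951 and 932 CPM to 2530 CPM in D2A1 3D. In D2.OR it was 4701 and 4242 CPM in batch 1 against 2445 to 3341 CPM (log2 fold change over the groups 1.15 ± 0.16 (SE), adjusted p = 0.0023 in edgeR). The clock factor Hlf, expressed mainly in D2A1, fell from a range of 3.21 to 189 CPM (median 58.7) to 33.4, 25.9, 2.84 and 1.16 CPM (log2 fold change -1.93 ± 0.20 (SE), adjusted p = 0.00058 in edgeR). Notum, an inhibitor of Wnt ligands, fell by 2.69 (SE 0.41, edgeR adjusted p = 0.003), the largest of 3 falls beside 1 rise among 11 Wnt and Notch targets (5.69% and 9.33% of all genes). The list had 1 fall and no rise without batch 1 or batch 3 of D2.OR 3D.

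**Figure D4:**
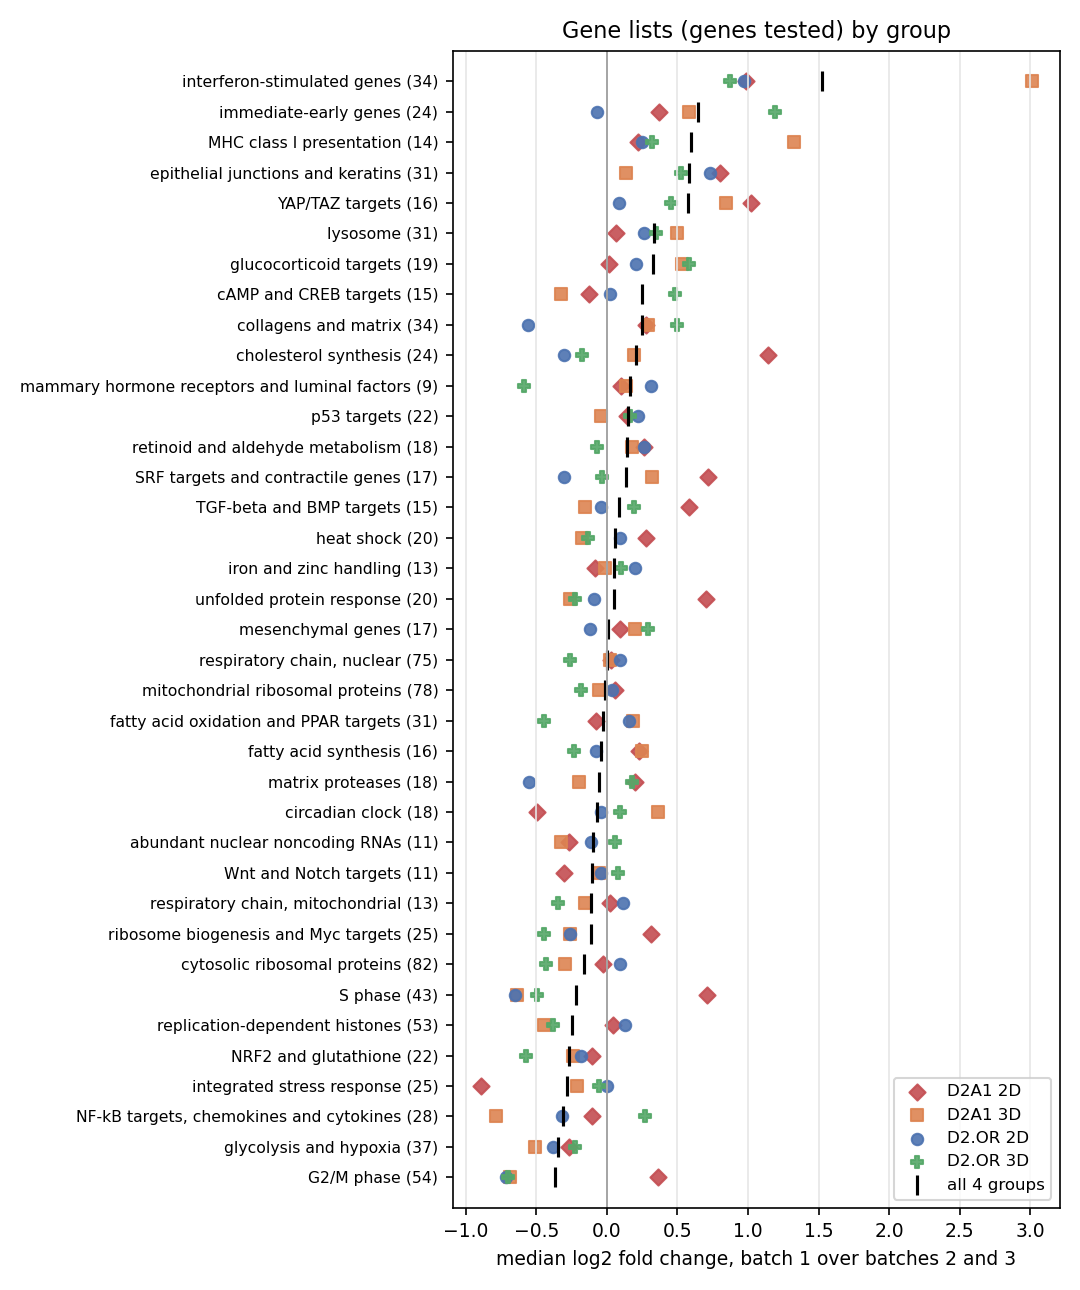
The median log2 fold change of batch 1 over batches 2 and 3 is plotted for 37 gene lists (number of genes tested in brackets), with 1 colored symbol for each group and a bar for the fit over all 4 groups. Interferon-stimulated genes reach 3.01 in D2A1 3D, and D2A1 2D is the highest group of the S phase, G2/M and cholesterol lists at 0.71, 0.36 and 1.14.

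Cell cycle genes differed between groups, and D2A1 2D went against the other 3. Among 43 S phase genes, 42 had a positive log2 fold change in D2A1 2D, whereas 43, 41 and 41 were negative in D2A1 3D, D2.OR 2D and D2.OR 3D. In D2A1 2D 21 rose and none fell (median 0.71), beside 10.8% of all genes called there. In D2A1 3D 14 fell (median -0.64, beside 11.3%), in D2.OR 2D 18 fell (median -0.65, beside 6.76%) and in D2.OR 3D 5 fell (median -0.50, beside 7.94%), and none rose. The 54 G2/M genes had the same pattern, with 11 up in D2A1 2D (median 0.36) and 21, 21 and 20 down in the other groups (medians -0.68, -0.71 and -0.70). In the fit over all 4 groups 0 of 43 S phase genes and 8 of 54 G2/M genes (14.8%) were called, beside 15.0% of all genes. All 8 were lower, beside 5.69% of all genes. Without D2A1 2D, 39 of 43 and 51 of 54 fell and none rose, beside 1888 falls and 2107 rises among all 16554 genes tested. Without its batch 1 library alone, 37 and 51 fell, beside 1736 of 17305. Without batch 1 of D2A1 3D 0 and 1 fell, beside 537 of 17256.

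Single genes show how far the levels moved. Mki67, the proliferation marker, had 190 CPM in batch 1, 117 in batch 2 and 108 in batch 3 in D2A1 2D (0.76 ± 0.13 (SE), adjusted p = 0.013 in edgeR). In D2A1 3D it had 233 CPM in batch 1, 356 in batch 2 and 405 in batch 3 (-0.71 ± 0.14 (SE), adjusted p = 0.018 in edgeR). D2.OR 2D had 112 CPM in batch 1, 222 in batch 2 and 264 in batch 3, and D2.OR 3D 190 CPM in batch 1, 319 in batch 2 and 308 in batch 3. In D2.OR, this RNA was thus not lower in 3D, whereas the study saw no KI67-positive D2.OR cells in 3D. That was a protein measure at an earlier time, and the difference was not tested. Uhrf1, which copies DNA methylation behind the fork, had 91.1 CPM in batch 1, 41.9 in batch 2 and 42.4 in batch 3 in D2A1 2D and 107 CPM in batch 1, 171 in batch 2 and 186 in batch 3 in D2A1 3D. Cdca3, a mitotic entry factor, had 35.1 CPM in batch 1, 15.2 in batch 2 and 16.8 in batch 3 in D2A1 2D and 46.5 CPM in batch 1, 75.1 in batch 2 and 77.1 in batch 3 in D2A1 3D. The line by culture difference passed for 2 of 54 G2/M genes (Mki67 and Cdca3), beside 0.618% of all genes. Among 43 S phase genes it passed for 6, Dtl, Uhrf1, Ccne2, Dscc1, Clspn and E2f8 (edgeR adjusted p of 0.043 for Mki67 and 0.045 for Uhrf1). Mki67, Uhrf1 and Cdca3, and the genes of the next paragraph, were picked from their lists after their values were seen.

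**Figure D5:**
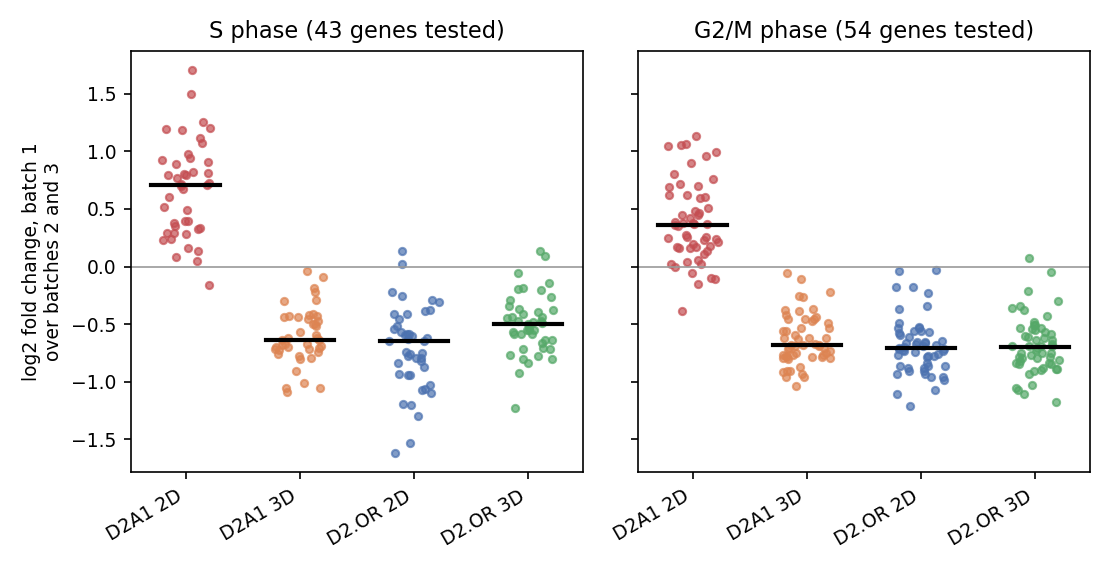
Each point is the log2 fold change of batch 1 over batches 2 and 3 for 1 gene of the S phase (left) or G2/M (right) list in 1 group, and the black bar is the median. D2A1 2D lies above 0 for 42 of 43 and 48 of 54 genes, and the other groups lie below 0 for at least 41 and 53.

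Sterol synthesis and the folding machinery of the endoplasmic reticulum rose in the same library. In D2A1 2D, where 10.8% of all genes were called in either direction, 17 of 24 cholesterol synthesis genes were up (median 1.14), whereas 1, 0 and 0 rose and 0, 1 and 1 fell in D2A1 3D, D2.OR 2D and D2.OR 3D. Cyp51, a sterol demethylase, had 391 CPM in batch 1, 100 in batch 2 and 172 in batch 3 in D2A1 2D (1.52 ± 0.26 (SE), adjusted p = 0.011 in edgeR), and Hsd17b7, of the same pathway, had 81.7 CPM in batch 1, 17 in batch 2 and 27.8 in batch 3 (1.87 ± 0.26 (SE), adjusted p = 0.0062 in edgeR). Of 20 unfolded protein response genes, 14 rose in D2A1 2D (median 0.70) and none in another group, while 3 fell in D2A1 3D and 1 in D2.OR 3D. Hspa5 (BiP), the main chaperone of the endoplasmic reticulum, had 2086 CPM in batch 1, 826 in batch 2 and 820 in batch 3 (1.34 ± 0.13 (SE), adjusted p = 0.0027 in edgeR), and in D2A1 3D 1714 CPM in batch 1, 1994 in batch 2 and 2001 in batch 3. Calr had 2235 CPM in batch 1, 854 in batch 2 and 917 in batch 3 in D2A1 2D (1.34 ± 0.15 (SE), adjusted p = 0.0033 in edgeR). The integrated stress response went down there, with 9 of 25 genes lower (median -0.90) and none higher. In the fit over all 4 groups, 2 of 24 cholesterol genes rose and none fell, 1 of 20 unfolded protein response genes fell and 2 of 25 stress response genes fell, shares below the 15.0% of all genes. Trib3, a pseudokinase of that response, had 55.2 CPM in batch 1, 305 in batch 2 and 139 in batch 3 (-2.01 ± 0.40 (SE), adjusted p = 0.021 in edgeR). The line by culture difference passed for none of the 24 cholesterol, 20 unfolded protein or 25 stress response genes (smallest edgeR adjusted p of 0.0887, 0.0528 and 0.155).

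Of 82 cytosolic ribosomal protein genes, 25 fell in D2A1 3D and 40 in D2.OR 3D, beside 11.3% and 7.94% of all genes called in either direction, whereas 1 fell in D2A1 2D and none in D2.OR 2D, and 1 rose, in D2A1 2D. The medians were -0.03, -0.30, 0.09 and -0.43 in the 4 groups. Rps19 had 252, 295, 311 and 251 CPM against 285 to 448 CPM (median 394) (log2 fold change -0.42 ± 0.11 (SE), adjusted p = 0.026 in edgeR), a call held under 19 of 26 alternatives and lost without the batch 1 or batch 2 library of D2A1 3D or the batch 1 library of D2.OR 3D. No ribosomal protein gene passed the test of the difference between cultures. Over all 4 groups 4 of 82 fell (4.88%, near the 5.69% of all genes). The count was 0 without batch 1 or 2 of D2A1 3D or batch 1 of D2.OR 3D, and 23 without batch 1 of D2.OR 2D. Of 75 nuclear genes of the respiratory chain none was called, beside 15.0% of all genes, with a median of 0.00.

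Tested group by group, with 1 batch 1 library each and the spread pooled over groups, 1820 genes (10.8%) differed in D2A1 2D, 1908 (11.3%) in D2A1 3D, 1138 (6.76%) in D2.OR 2D and 1335 (7.94%) in D2.OR 3D. These tests assume that the single batch 1 library varies like the others. Of the calls, 1132, 1242, 581 and 758 were higher in batch 1. The calls of all 4 groups had 101 genes up and 33 down in common, and 179 genes were up in some groups and down in others. The counts depend on few libraries: without the batch 3 library of D2A1 3D, 659 genes were called in that group, and without the batch 3 library of D2.OR 2D, 246 were called there.

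The batch 1 effect differed between the lines for 175 genes (1.04%), 58 with a higher and 117 with a lower effect in D2.OR. Wnt4, a Wnt ligand of the mammary ducts, had 57.3 CPM in batch 1, 7.06 in batch 2 and 7.07 in batch 3 in D2A1 3D but 20.6 CPM in batch 1, 200 in batch 2 and 130 in batch 3 in D2.OR 3D. In 2D, D2A1 had 40.7 CPM in batch 1, 25.1 in batch 2 and 12.8 in batch 3, which did not pass on its own, and D2.OR had 3.59 CPM in batch 1, 22.1 in batch 2 and 16.5 in batch 3 (line difference -4.81 ± 0.62 (SE), adjusted p = 0.016 in edgeR). The collagenase Mmp13 fell in D2.OR, where 2D had 0.563 CPM in batch 1, 13.4 in batch 2 and 21.1 in batch 3, and stayed at 0.264 to 1.48 CPM in D2A1 (line difference -5.50 ± 0.69 (SE), adjusted p = 0.014 in edgeR). The stromelysin Mmp10 rose in D2A1, where 2D had 10.4 CPM in batch 1, 0.374 in batch 2 and 0.527 in batch 3, and was at or under 0.157 CPM in D2.OR (line difference -7.67 ± 0.75 (SE), adjusted p = 0.0069 in edgeR, a fitted value that depends on the prior count because D2.OR is near 0). Cldn1, a tight junction protein, had 11.5 CPM in batch 1, 1.04 in batch 2 and 0.932 in batch 3 in D2A1 2D and 1.98 CPM in batch 1, 2.69 in batch 2 and 4.92 in batch 3 in D2.OR 2D (line difference -3.83 ± 0.46 (SE), adjusted p = 0.012 in edgeR). Zfp469, a zinc finger gene, rose from 0.123 to 0.617 CPM to 2.06 and 1.70 CPM in D2A1 and had 30.8 and 29.4 CPM against 59.5 to 94.9 CPM in D2.OR (line difference -3.83 ± 0.41 (SE), adjusted p = 0.0081 in edgeR).

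In the other direction, Slfn2, of the Schlafen family, went down in D2A1 and up in D2.OR in both cultures. D2A1 2D had 3.34 CPM in batch 1, 18 in batch 2 and 12.1 in batch 3, and D2.OR 2D had 15.9 CPM in batch 1, 4.68 in batch 2 and 5.08 in batch 3 (line difference 3.44 ± 0.35 (SE), adjusted p = 0.007 in edgeR). Csf3, the granulocyte growth factor, was high only in D2A1 3D of batches 2 and 3, with 0.383 CPM in batch 1, 77.7 in batch 2 and 61 in batch 3 (line difference 6.57 ± 1.02 (SE), adjusted p = 0.027 in edgeR). The call was lost when any 1 of 7 libraries was left out: all 3 of D2A1 3D, batch 2 of D2A1 2D, batches 2 and 3 of D2.OR 2D and batch 1 of D2.OR 3D. Single libraries also ended the line calls of Ism1 (batch 2 of D2A1 2D, batch 2 or 3 of D2A1 3D, or batch 3 of D2.OR 2D), Pparg (batch 1 or 2 of D2A1 3D, or batch 1 of D2.OR 3D) and Mmp10 (batch 1 of D2A1 2D or of D2.OR 2D). Ism1, a secreted inhibitor of vessel growth, had 3.62 CPM in batch 1, 13.8 in batch 2 and 13.6 in batch 3 in D2A1 3D and 40.6 CPM in batch 1, 8.46 in batch 2 and 6.26 in batch 3 in D2.OR 3D (line difference 3.38 ± 0.50 (SE), adjusted p = 0.023 in edgeR). Pparg, the fat cell nuclear receptor, had 17.7 CPM in batch 1, 3.3 in batch 2 and 2.79 in batch 3 in D2.OR 2D and 11 CPM in batch 1, 21.1 in batch 2 and 19 in batch 3 in D2.OR 3D, which did not pass on its own. In D2A1 2D it stayed at or under 0.0813 CPM, and D2A1 3D had 0.0425 CPM in batch 1, 0.849 in batch 2 and 0.706 in batch 3 (line difference 3.19 ± 0.44 (SE), adjusted p = 0.017 in edgeR). Gm10163, a gene model known by number only, had 4.37 CPM in batch 1, 54.1 in batch 2 and 47.7 in batch 3 in D2A1 2D and 38.6 CPM in batch 1, 0.196 in batch 2 and 0.0996 in batch 3 in D2.OR 2D (line difference 11.57 ± 0.96 (SE), adjusted p = 0.0062 in edgeR, with D2A1 3D of batch 1 at 0).

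Between cultures, 2 genes differed in the batch 1 effect (0.0119%), Gm10163 and Pparg. Their culture differences were -9.94 ± 0.96 (SE, edgeR adjusted p = 0.031) and -3.42 ± 0.33 (SE, edgeR adjusted p = 0.031). With the replicate block, neither passed and the count was 0 (2131 genes at an unadjusted p under 0.05). Among adipocyte markers, Fabp4 had 23.1 CPM in batch 1, 191 in batch 2 and 49.8 in batch 3 in D2.OR 3D and Plin1 5.65 CPM in batch 1, 74.3 in batch 2 and 22.6 in batch 3, neither of them called, while Lep rose and Cidec fell. Scaled by the whole library, the 5 adipocyte markers summed to 8.61 to 32.2 CPM in batch 1 and to 1.99 to 272 CPM elsewhere, and their part in the Pparg result was not tested.

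The remaining lists are given as up and down counts, in that order, beside 9.33% and 5.69% of all genes. They were 3 and 5 of 31 for fatty acid oxidation and PPAR targets, 3 and 2 of 17 for mesenchymal genes, 2 and 3 of 18 for matrix proteases, 2 and 2 of 18 for the circadian clock and 2 and 2 of 13 for iron and zinc handling. Luminal factors and hormone receptors of the mammary gland had 1 and 2 of 9, and TGF-beta and BMP targets had 2 and 1 of 15. SRF targets had 0 and 2 of 17, with 4 up in D2A1 2D (beside 10.8% of all genes called there). The counts were 2 and 0 of 16 for fatty acid synthesis, 2 and 0 of 53 for histones, 2 and 1 of 78 for mitochondrial ribosomal proteins, 1 and 0 of 13 for mitochondrially encoded respiratory genes, 0 and 1 of 25 for ribosome biogenesis and 1 and 0 of 11 for abundant nuclear noncoding RNAs. Ribosome biogenesis depended on D2A1 2D, without which 12 of 25 fell and 1 rose, beside 1888 and 2107 of all 16554 genes tested. These small counts moved with single libraries. The 5 falls of fatty acid oxidation became 1 or 2 without any 1 library of D2A1 3D or D2.OR 3D and 3 without batch 3 of either 2D group. Iron and zinc handling had 4 up and 4 down without batch 1 of D2A1 2D and 1 of each without batch 1 of D2A1 3D, D2.OR 2D or D2.OR 3D. Without batch 1 of D2A1 2D, 4 clock genes rose, 5 matrix proteases fell and 5 ribosome biogenesis genes fell, and without batch 1 of D2A1 3D no clock gene rose and 1 matrix protease fell. In each of the other lists of this paragraph, some single library moved a count by 1 or 2 genes.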

How the data were processed

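RNA-seq was made from 12 libraries, 3 for each of 4 groups. The authors trimmed reads with Trimmomatic 0.32, aligned them with STAR 2.5.3 to GRCm38 and deposited expected counts per gene from RSEM 1.3.0, with TPM (scaled by effective length and library total) and FPKM beside them. FPKM, as deposited by the authors, was not used. The deposited TPM served only for limma alternatives. The strand setting is not given in the sources used here.

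Expected counts were rounded. Genes passing filterByExpr by group were normalized by TMM and tested with edgeR 4.0.16 (R 4.3.3) in a model of the 4 groups plus a batch 1 term. Interaction terms gave the line and culture differences, and a term per group gave the within-group tests. P-values were Benjamini-Hochberg adjusted over all genes. Library measures had exact permutation tests within groups, which did not keep the libraries of a batch together. Libraries held 47589611 to 73325069 counts, and a floor of 3 counts per library, which covers counting error only, was used for genes near 0. The scripts were tested on simulated data.

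Named genes were the 12 largest rises and falls with batch 1 outside both other batches in every group and a mean of at least 10 CPM, the 2 members of each list with the smallest p, up to 4 further members of lists with at least 2 times the background share, and the 5 largest line and culture differences in each direction. Mki67, Uhrf1, Cdca3, Cyp51, Hsd17b7, Hspa5, Calr, Trib3, Isg15, Ifit3, Rsad2, Crem, Cd14, Fabp4, Plin1, Lep and Cidec fall outside this rule and were chosen after their values were seen. Members and lists were chosen with earlier results of these data known.

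The labels say that the replicate number is the batch, so the numbers pair the libraries. Correlations of deviations from group means were 0.245 to 0.511 within batch 1, 0.134 to 0.356 within batch 2 and 0.076 to 0.384 within batch 3. Alternatives were a replicate block with 3 batch levels, other scalings and filters, DESeq2 1.42.0, limma 3.58.1 and leaving out libraries, batches or groups.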

Additional observations from a re-analysis of the deposited data

Results flagged for a closer look

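With group medians of the batch 1 effect set side by side, 4 of 43 lists had 1 group far from the other groups (Dixon's test at its 95% critical value). Chance flags about 1 in 20. Interferon-stimulated genes had a median log2 fold change of 3.01 in D2A1 3D, and MHC class I presentation 1.33 in the same group. S phase genes had 0.71 and G2/M genes 0.36 in D2A1 2D, the group in which both lists were above 0.

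The batch 1 effect differed between the lines (D2.OR minus D2A1, log2, interaction test in edgeR) by 11.57 for Gm10163, 6.57 for Csf3, 3.44 for Slfn2, 3.38 for Ism1 and 3.19 for Pparg. It was -7.67 for Mmp10, -5.50 for Mmp13, -4.81 for Wnt4 and -3.83 for both Cldn1 and Zfp469. Between cultures (3D minus 2D) it differed by -9.94 for Gm10163 and -3.42 for Pparg. The values of Gm10163, Csf3, Mmp10 and Pparg include libraries at or near 0 and depend on the prior count.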

How the results depend on the processing

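The 2528 genes that differed in batch 1 became 2234 with the replicate block, 124 without batch 2 and 246 without batch 3, which have fewer libraries. They were 3995, 1119, 1426 and 1356 without D2A1 2D, D2A1 3D, D2.OR 2D and D2.OR 3D (chosen after seeing the data), and 1526 (without batch 1 of D2A1 3D) to 3817 (without batch 1 of D2A1 2D) when single libraries were left out. Up and down, the calls were 1570 and 958, with 1452 and 1091 by DESeq2 size factors, 1941 and 1590 (3531 in all) by DESeq2's likelihood-ratio test, and 1454 and 603 (2057 in all) by limma on log2(TPM + 1). The 175 line differences became 139 with the replicate block, 298 with no filter, 1 without batch 2, 0 without batch 3, 664 with 4 separate batch 1 terms, 848 in DESeq2 (422 higher and 426 lower in D2.OR, against 58 and 117), 291 in limma on log2(TPM + 1) and 53 (without batch 2 of D2A1 3D) to 768 (without batch 1 of D2A1 3D) without single libraries. The 2 culture differences became 0 with the replicate block, 7 with no filter, 0 with at least 10 counts, 1 without batch 2, 0 without batch 3, 8 with 4 terms, 343 in DESeq2, 0 and 1 in limma at pseudocounts of 1 and 0.1, and 0 to 693 without single libraries. The highest value came without batch 1 of D2.OR 2D. When a batch 1 library is left out, each of the 3 others has a term of its own by construction. Within groups, leaving out a library gave 1205 to 1995 genes in D2A1 2D, 659 to 2442 in D2A1 3D, 246 to 1542 in D2.OR 2D and 432 to 1825 in D2.OR 3D. Batch 3 against batch 2 gave 0 genes in edgeR and 3 in the DESeq2 Wald test. The difference in genes with a count was 236 without D2.OR 2D. The share of the top 10 genes was -0.396, -0.769 and -0.598 points without D2A1 2D, D2A1 3D and D2.OR 2D, and the ribosomal protein share was -0.768 without D2.OR 2D. Nuclear noncoding RNA, 0.0298 points higher in batch 1, was 0.0449 without D2A1 2D and 0.0314, 0.0254 and 0.0173 points without D2A1 3D, D2.OR 2D and D2.OR 3D, where fewer groups raise the smallest p. Mean effective length reversed from -8.15 to 21.96 bases without D2A1 2D and 23.3 without D2.OR 2D. Apart from these, the cause was not tested. Of 118 named genes, 15 were called for batch 1 under every alternative run, and no fold change reversed. Over genes and alternatives 2588 batch 1 values stayed on their side of the threshold and 455 lost it. The block changed the call of 6, Tm7sf2, Acss2, Rpl8, Noc4l, Slc39a14 and Jag1, and of no other named gene for batch 1.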

Other observations

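Gene families were looked up after their members had been seen among the changed genes, so their counts are descriptions, to be read beside 9.33% of all genes higher and 5.69% lower in batch 1. They overlap the lists: Gbp2 and Gbp3 are also interferon-stimulated list members, Pde4b, Pde4d and Pde10a are cAMP list members, and Bgn, Dcn and Lum are collagen and matrix list members. Small leucine-rich proteoglycans, which bind collagen and growth factors, had 6 of 9 genes higher in batch 1 (Aspn, Fmod, Ogn, Omd, Podn and Prelp) and none lower in edgeR, with a median log2 fold change of 2.45. Immunity-related GTPases, interferon-induced defenders against intracellular pathogens, had 6 of 7 higher (Igtp, Iigp1, Irgm1, Irgm2, Tgtp1 and Tgtp2) and none lower, with a median of 1.68. Guanylate-binding proteins had 6 of 11 higher and a median of 1.25. Both families hold near-identical copies, between which reads can be divided unequally.

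Among 19 genes whose symbol starts with Pde and a number, 5 fell (Pde10a, Pde1a, Pde3b, Pde4b and Pde4d) and 2 rose (Pde4a and Pde7a). Semaphorins, guidance ligands, had 6 of 19 lower and 3 higher, with a median of -0.44. Of 4 IGF binding proteins, Igfbp4 and Igfbp5 fell.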
